A study of Mus musculus with 6 samples.

Results

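*Trp53*, the mouse gene for p53, and 9 genes that p53 is known to switch on (*Cdkn1a*, *Mdm2*, *Ccng1*, *Bax*, *Bbc3*, *Pmaip1*, *Phlda3*, *Trp53inp1* and *Sesn2*) were followed in craniofacial tissue of mouse embryos that lack the splicing factor Rbfox2 in the neural crest. The genes were chosen by name as standard members of the p53 response, and 10 of 10 were found among the 38553 genes of the deposited table. Poly(A)+ RNA was sequenced from microdissected tissue in 3 control samples of the genotype Rbfox2 flox/flox and 3 *Rbfox2* mutant samples of the genotype Pax3Cre/+:Rbfox2 flox/flox, at E12.5 and without treatment. Both groups carried the floxed *Rbfox2* alleles on a mixed genetic background, and the mutants also carried Cre inserted in 1 of the copies of *Pax3*, so Cre and the altered *Pax3* copy came with the mutant group and not with the controls. *Pax3* is active in the neural crest, the dorsal neural tube and the somites, and the dissected face also holds cells in which Cre was never expressed. How many embryos went into 1 library is not given in the sources used here. Y-linked RNA was at a high level in mutant replicates 1 and 2 only and in no control. Its level was thus unequal between the groups for every gene compared here. The values are FPKM, the fragments mapped to a gene scaled to its length and to the mapped fragments of the sample, and no read counts came with them, so the share of counting error in the errors given below could not be estimated separately.

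p53 is a transcription factor whose amount is set mostly at the protein level, by the ubiquitin ligase Mdm2, and less by its own mRNA. When DNA damage or ribosome defects stabilise it, it switches on genes that stop the cell cycle (*Cdkn1a*), start mitochondrial cell death (*Bax*, *Bbc3*, *Pmaip1*), limit growth signals (*Phlda3*, *Sesn2*) or limit p53 itself (*Mdm2*, *Ccng1*). Neural crest cells are known to be sensitive to p53, and its activation in them is a common route to small or cleft facial structures. The mRNA levels of its target genes are therefore a usual readout of p53 activity in this tissue, and the comparison of mutant with control asks whether that readout differed.

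No difference beyond the spread between samples was detected in these samples. Of the 9 members that passed the expression filter (FPKM over 5 in each control or each mutant sample), 0 passed an adjusted p of 0.05 in limma, beside 0.00% of the 10061 genes tested. At an unadjusted p of 0.05, 0 of 9 passed as well, beside 1.66% of the genes tested. The targeted gene *Rbfox2* did not pass the adjusted threshold in this fit either (adjusted p = 0.14 in limma). Both counts are near the share of all genes, so they are not a result particular to the members. *Pmaip1* lay below the filter and was read from a fit with a filter of FPKM 1, where its unadjusted p was 0.67. The log2 fold changes of the 10 members, mutant against control on log2(FPKM + 1), lay between -0.076 for *Phlda3* and 0.14 for *Bbc3*, with 6 above 0 and 4 below. Their median was 0.067 and their median size 0.077, beside a median of 0.0057 and a median size of 0.054 over the genes tested. Both median sizes are below the median standard error of the genes tested, which was 0.10.

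The promoters of the members were searched for the sequence that p53 is known to bind. p53 binds pairs of a short half-site made of 3 purines, a C, 2 bases that are A or T, a G and 3 pyrimidines, a pattern that reads the same on both strands. RefSeq windows of 250 bases before to 50 bases after a transcription start (GRCm38.p6) were at hand for 8 of the 10 members, in 11 windows. A half-site was found in 5 of these 8 genes, while 9.55% of the 27025 genes with a window and 8.36% of the 32851 windows hold one. Only exact matches to this pattern were counted. A full element, here a pair of such half-sites with a spacer of up to 13 bases, stood in 24 windows or 0.0731%. Among the members only *Cdkn1a* had one in its window, with a spacer of 12 bases. The stretches around the half-sites are shown because a half-site is the unit that p53 contacts, with the half-sites in capitals, each 5′ to 3′ on the strand of its gene.
Cdkn1a, chr17:29090886-29090957, + strand: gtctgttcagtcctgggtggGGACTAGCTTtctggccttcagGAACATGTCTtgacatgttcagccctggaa
Trp53, chr11:69580264-69580313, + strand: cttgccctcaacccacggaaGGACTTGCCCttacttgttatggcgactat
Mdm2, chr10:117710915-117710964, - strand: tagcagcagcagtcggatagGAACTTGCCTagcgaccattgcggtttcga
Ccng1, chr11:40755442-40755491, - strand: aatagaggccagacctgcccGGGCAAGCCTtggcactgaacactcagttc
Bax, chr7:45467070-45467119, - strand: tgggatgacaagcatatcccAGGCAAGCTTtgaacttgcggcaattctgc

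The 2 half-sites of *Cdkn1a* begin 73 and 51 bases before the start at 29090979, and the window of its other RefSeq start, 2790 bases downstream, held none. Directly after GAACATGTCT of *Cdkn1a*, without a spacer, stands tgacatgttc. It departs from the half-site pattern only at its first base, so it was not counted or marked. The half-site of *Trp53* begins 75 bases before its start, and those of *Ccng1*, *Mdm2* and *Bax* begin 185, 186 and 201 bases before theirs. The windows of *Bbc3*, *Phlda3* and *Sesn2* held no match. A match is a description of the letters in these windows and not a measured binding site, and a window without one says nothing about p53 binding elsewhere in the gene. Among the other p53 targets described further on, 8 of 22 with a window held a half-site and 0 a full element.

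*Trp53* and *Bax* had the highest levels of the 10 genes, and *Pmaip1* had the lowest. By their mean FPKM over the 6 samples, which is scaled to gene length, the order was *Trp53*, *Bax*, *Mdm2*, *Ccng1*, *Trp53inp1*, *Cdkn1a*, *Phlda3*, *Bbc3*, *Sesn2* and *Pmaip1*. *Trp53* and *Bax* overlapped in their ranges, with *Trp53* the higher in 3 of 6 samples. *Bax* stood above *Mdm2* and *Mdm2* above *Ccng1* in 6 of 6 samples with no overlap. From *Ccng1* to *Phlda3*, each of the 4 genes overlapped with its neighbour in this order, so neighbours do not differ beyond their spread. *Bbc3* exceeded *Sesn2* in 6 of 6 samples although their ranges overlapped, and *Sesn2* lay above *Pmaip1* with no overlap.

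**Figure D1:**
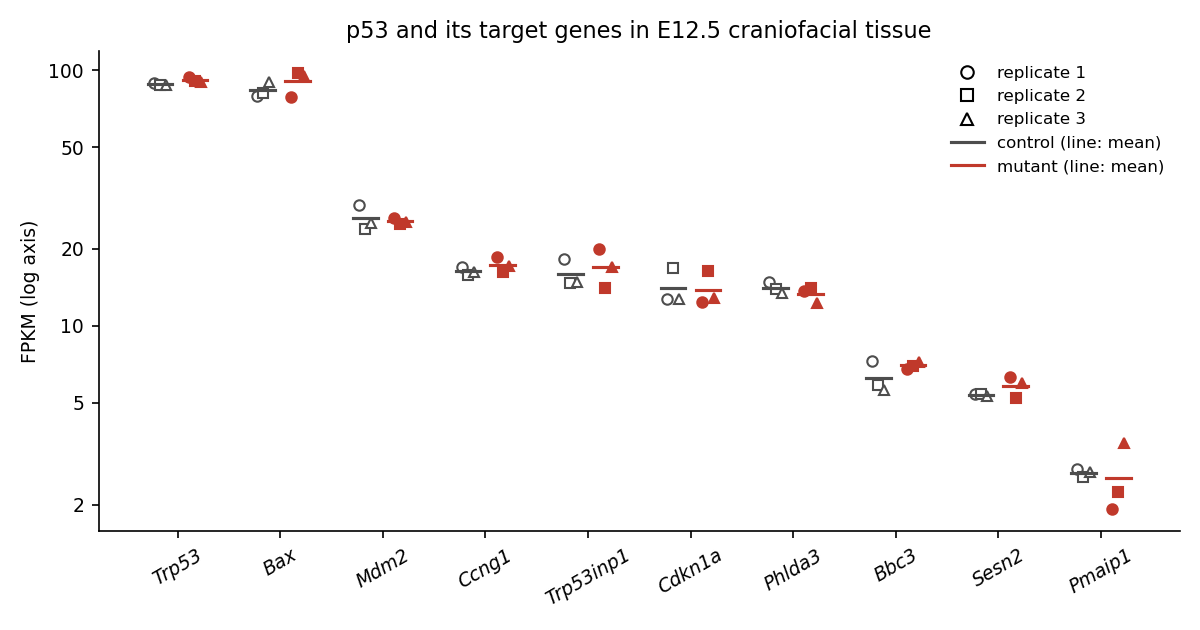
FPKM (log axis) of the 10 genes in each of the 3 control samples (open, grey) and 3 mutant samples (filled, red), with symbols for the replicate number and a line at each group's mean, ordered by mean level. The mutant points of *Trp53*, 89.8 to 93.8, lie just above its control points, 87.2 to 89.3, and the groups overlap in the other 9 genes.

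*Trp53* (ENSMUSG00000059552, chromosome 11, 69580359 to 69591873 on the + strand of GRCm38) encodes p53 itself and varied little within either group. Its FPKM was 89.3, 87.2 and 87.4 in control replicates 1, 2 and 3 and 93.8, 91.0 and 89.8 in mutant replicates 1, 2 and 3. The mutant samples were each above the controls, and the mutant mean of 91.5 ± 2.03 (SD, n = 3) was 104% of the control mean of 88.0 ± 1.17. In log2 terms the fold change was 0.056, with a standard error of 0.069 and a 95% interval of -0.11 to 0.22 (limma, unadjusted p = 0.44, adjusted p = 1.0). *Trp53* was the 1 member whose groups did not overlap, beside 5.0% of the genes tested (503 of 10061), or 2.63% with the mutant above. The exact two-sided permutation test gave p = 0.10, the smallest that 3 samples against 3 allow, and the groups overlapped after median-ratio scaling or quantile normalization of the samples. A processed pseudogene of *Trp53* on chromosome 17 was listed at 0 in each sample.

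*Mdm2* (ENSMUSG00000020184, chromosome 10, 117688875 to 117710758, - strand), which encodes the ubiquitin ligase that degrades p53 and is itself a p53 target, had an FPKM of 29.7, 24.0 and 25.3 in control samples, against 26.4, 24.9 and 25.5 in mutant samples. Control replicate 1 was the highest and the other 5 samples lay close together, with the mutants inside the range of the controls. For *Mdm2* the log2 fold change was -0.035 with a standard error of 0.095 (95% interval -0.26 to 0.19, unadjusted p = 0.72). Between the first replicates the difference was -0.17, and over replicates 2 and 3 it was 0.031, so the sign rested on the first replicates. *Ccng1* (ENSMUSG00000020326, chromosome 11, 40748552 to 40755311, - strand), which encodes cyclin G1, a partner of the phosphatase that acts on Mdm2, had 16.9, 15.8 and 16.3 FPKM in control samples, against 18.6, 16.2 and 17.1 in mutant samples. The mutant was higher in 3 of 3 pairs of the same replicate number, though no label gives a pairing, and the groups overlapped. The log2 fold change of *Ccng1* was 0.078 ± 0.080 (SE), with an unadjusted p of 0.36.

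*Cdkn1a* (ENSMUSG00000023067, chromosome 17, 29090976 to 29100727, + strand) encodes p21, the inhibitor of cyclin-dependent kinases and the most used single readout of p53 activity. Its FPKM was 12.7, 16.8 and 12.7 in control replicates 1, 2 and 3 and 12.3, 16.3 and 12.8 in mutant replicates 1, 2 and 3. The second replicate was the highest of each group, by about the same amount in both, and the groups overlapped throughout. The means were 14.1 ± 2.38 in controls and 13.8 ± 2.19 in mutants. Mutants differed from controls in *Cdkn1a* by a log2 fold change of -0.021 with a standard error of 0.15, and its 95% interval of -0.37 to 0.32 covers folds from 0.776 to 1.25 (unadjusted p = 0.89, exact permutation p = 0.70). The sums of epithelial markers were also highest in control replicate 2, at 247 FPKM, and mutant replicate 2, at 197 FPKM, within their groups. So were those of skeletal muscle markers, at 517 and 288 FPKM, endothelial markers, at 165 and 156 FPKM, and macrophage markers, at 45.0 and 49.7 FPKM. No other marker list was highest in both second replicates. Erythroid marker sums were lowest in both, at 4727 and 6529 FPKM. The part of these marker lists in the *Cdkn1a* pattern was not tested. In bulk tissue, fewer cells of a type and less RNA per cell cannot be told apart. AC167363.2, a gene model of the opposite strand, overlaps *Cdkn1a* in the annotation. No FPKM is listed for AC167363.2, and how overlapping reads were assigned is not given in the sources used here.

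*Bbc3* and *Bax*, inducers of mitochondrial cell death, had the largest offsets above 0 among the members and did not pass the test, while *Pmaip1*, another inducer, had an offset below 0. *Bax* (ENSMUSG00000003873, chromosome 7, 45461697 to 45466898, - strand), which encodes the pore-forming protein of the outer mitochondrial membrane, had 79.3, 81.7 and 89.6 FPKM in control samples, against 78.3, 97.8 and 94.7 in mutant samples. Mutant replicate 1 was the lowest of the 6 samples and mutant replicates 2 and 3 the highest. The log2 fold change of *Bax* was 0.11 ± 0.11 (SE), with an unadjusted p of 0.35, and it was -0.017 between the first replicates and 0.17 over replicates 2 and 3. *Bax* shares part of its locus with Gm45808, a longer gene model of the same strand, so its values are uncertain to that degree. No FPKM is listed for Gm45808. *Bbc3* (ENSMUSG00000002083, chromosome 7, 16308393 to 16318205, + strand), which encodes the BH3-only protein Puma, had 7.28, 5.89 and 5.63 FPKM in control samples, against 6.81, 6.97 and 7.21 in mutant samples. Control replicate 1 was the highest sample and control replicates 2 and 3 the lowest, with the mutants in between. *Bbc3* had a log2 fold change of 0.14 ± 0.10 (SE), the largest of the 10 (unadjusted p = 0.21), at -0.084 between the first replicates and 0.26 over replicates 2 and 3.

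*Pmaip1* (ENSMUSG00000024521, chromosome 18, 66458533 to 66465565, + strand), which encodes the BH3-only protein Noxa, had the lowest level of the 10 genes and the widest relative spread in the mutants. Its FPKM was 2.75, 2.56 and 2.69 in control samples, against 1.92, 2.24 and 3.48 in mutant samples. The coefficient of variation was 3.67% in controls and 32.5% in mutants, with 2 mutants below and 1 above every control. The 2 mutants with low *Pmaip1*, replicates 1 and 2, were the samples with Y-linked RNA, whose 4 marker genes summed to 57.7 and 55.5 FPKM there and to between 0.099 and 0.217 in the other 4 samples. The log2 fold change of *Pmaip1* was -0.073 ± 0.16 (SE). It was 0.29 when the Y-linked level was a covariate, a value that rests on mutant replicate 3 alone against the controls, since no control had Y-linked RNA at the level of the other mutants.

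*Phlda3* (ENSMUSG00000041801, chromosome 1, 135766119 to 135769136, + strand), which encodes an inhibitor of Akt, had 14.8, 13.9 and 13.5 FPKM in control samples, against 13.7, 14.0 and 12.3 in mutant samples. Mutant replicate 3 was the lowest sample, the groups overlapped and the log2 fold change was -0.076 ± 0.083 (SE). *Trp53inp1* (ENSMUSG00000028211, chromosome 4, 11156431 to 11174379, + strand), which encodes a stress protein that promotes p53 activity and autophagy, had 18.3, 14.7 and 14.8 FPKM in control samples, against 19.9, 14.1 and 17.0 in mutant samples. The first replicate was the highest of each group, a pattern unlike that of *Cdkn1a*. The log2 fold change of *Trp53inp1* was 0.084 ± 0.14 (SE), and the upper end of its 95% interval, a fold of 1.34, was the highest of the 10 members. *Sesn2* (ENSMUSG00000028893, chromosome 4, 132492032 to 132510501, - strand), which encodes a leucine sensor that restrains mTORC1, had 5.40, 5.40 and 5.31 FPKM in control samples, against 6.29, 5.23 and 5.95 in mutant samples. Its controls varied by 0.937% and its mutants by 9.30% (coefficients of variation), 1 mutant was below the controls and 2 were above, and the log2 fold change was 0.096 ± 0.088 (SE). Gm12981, which overlaps *Sesn2*, was at most 0.059 FPKM.

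**Figure D2:**
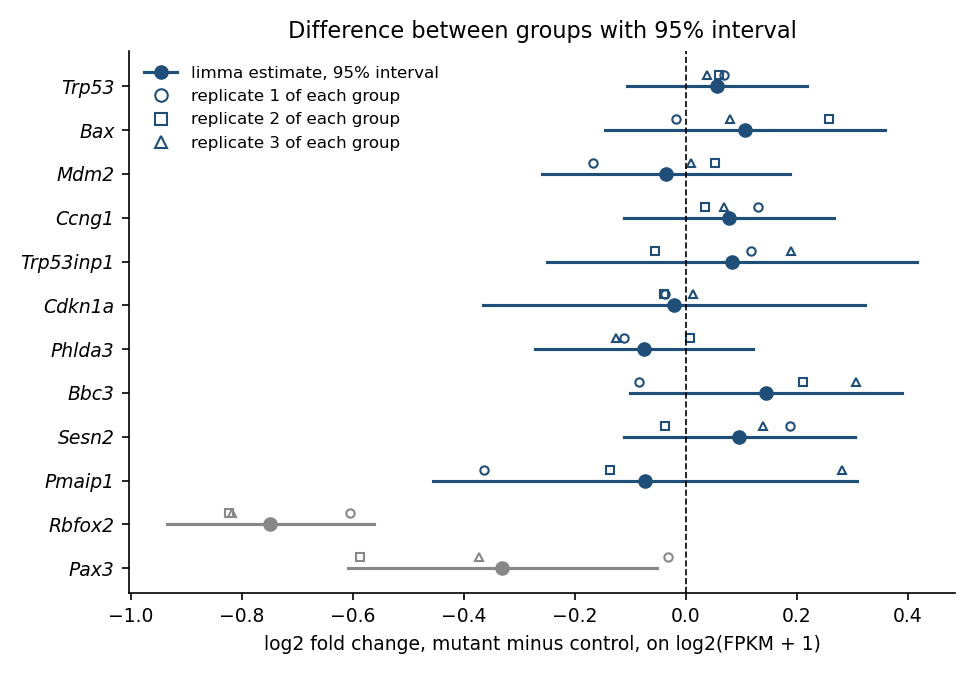
Log2 fold change, mutant minus control on log2(FPKM + 1), of the 10 genes (blue) and of *Rbfox2* and *Pax3* (grey). Filled circles are limma estimates with 95% intervals, and open symbols are the differences between samples of the same replicate number. Each of the 10 blue intervals includes 0, with estimates from -0.076 to 0.14, while the interval of *Rbfox2* runs from -0.94 to -0.56.

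The 95% intervals of the 10 members covered folds from 0.729, the lower end for *Pmaip1*, to 1.34, on the log2(FPKM + 1) scale, so a doubling of any of these mRNAs over the whole tissue lies outside its interval. The intervals are for whole craniofacial tissue, and a larger difference in a small share of its cells was not measured. When each of the 9 targets was centred on its own mean over the 6 samples, the mean of the centred log2 values was 0.042, -0.035 and -0.057 in control replicates 1, 2 and 3 and 0.0032, -0.0025 and 0.050 in mutant replicates 1, 2 and 3. Control replicate 1 and mutant replicate 3 were the 2 highest samples on this scale, with 6 of 9 targets above their own mean in each, so the groups were interleaved. Within the samples, the members did not share 1 pattern. *Trp53inp1* was highest in the first replicates and *Cdkn1a* in the second.

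Replicate 1 of either group differed from the other 4 samples across the genes tested, with scores of -19.1 and -17.0 on the first principal component (54.7% of the variance), against 7.55 to 11.0. No label gives a batch for them. Over replicates 2 and 3 only, 2 members, *Bax* and *Bbc3*, passed an unadjusted threshold of 0.05 in limma, at 0.048 and 0.024, beside 11.0% of the genes tested in that fit. Their adjusted p-values were 0.45 and 0.42. In these 4 samples the groups did not overlap for 3 members, *Trp53*, *Bax* and *Bbc3*, beside 45.0% of the genes tested. Without control replicate 1 alone, *Bbc3* had an unadjusted p of 0.026, beside 6.45% of the genes tested. With the replicate number as a block, 0 of 9 members had an unadjusted p under 0.05, beside 6.0% of the genes tested (604 of 10061), and the members' p-values with the block ran from 0.16 to 0.74.

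**Figure D3:**
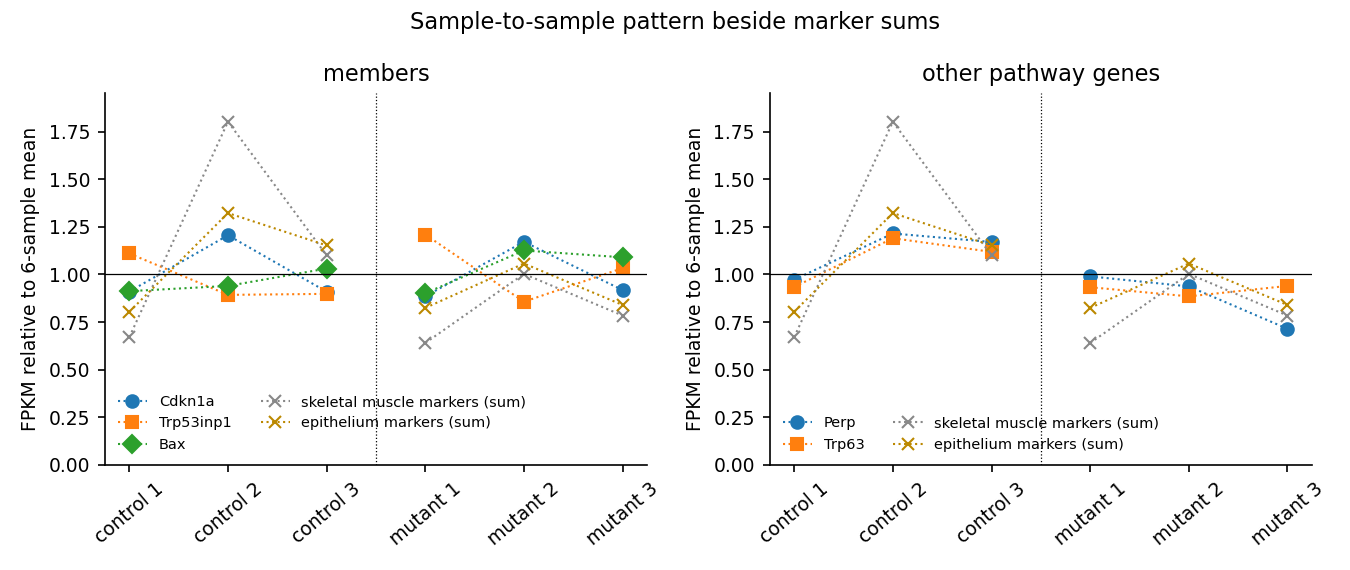
FPKM relative to the mean of the 6 samples for *Cdkn1a*, *Trp53inp1* and *Bax* (left) and for *Perp* and *Trp63* (right), beside the summed FPKM of 12 skeletal muscle and 11 epithelial marker genes (crosses). Dotted lines join samples of 1 group to guide the eye, and replicates have no order. Within each group *Cdkn1a* is highest in the second replicate and *Trp53inp1* in the first. *Perp* and *Trp63* are below their means in each mutant sample and also in control replicate 1.

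Further targets of p53 were read from a list of 30 genes, of which 28 were in the table and 20 passed the filter. At an unadjusted p of 0.05, 0 of these 20 were higher in mutants, beside 0.706% of the genes tested, and 1 was lower, beside 0.954%. Their median log2 fold change was 0.022, with 12 above 0. The lower gene was *Perp*, a desmosomal membrane protein of epithelia that both p53 and p63 are known to activate. Its FPKM was 12.9, 16.1 and 15.5 in control samples, against 13.1, 12.4 and 9.49 in mutant samples. Mutant replicates 2 and 3 were below the controls and mutant replicate 1 was not. *Perp* thus had a log2 fold change of -0.33 with a standard error of 0.14 (unadjusted p = 0.049, adjusted p = 1.0, exact permutation p = 0.20). It was 0.023 between the first replicates and -0.50 over replicates 2 and 3. With the Y-linked level as a covariate it was -0.60, a value that rests on mutant replicate 3 alone against the controls. The unadjusted p in limma was 0.14, 0.13, 0.062 and 0.15 without control replicate 2, control replicate 3, mutant replicate 2 and mutant replicate 3, each left out alone. It was 0.020 and 0.030 without control replicate 1 and mutant replicate 1. The summed FPKM of 11 epithelial markers was 150, 247 and 215 in control samples, against 154, 197 and 157 in mutant samples, and its part in the *Perp* difference was not tested.

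The next largest log2 fold change among the 20 tested genes was 0.11 for *Btg2*, an antiproliferative gene, at 30.8, 18.9 and 23.0 FPKM in control samples, against 26.5, 25.6 and 25.3 in mutant samples. The mutants were close together and inside the range of the controls. *Ddb2*, a DNA damage recognition gene, was the 1 of the 20 tested genes whose groups did not overlap, beside 5.0% of the genes tested, at 7.98 to 8.76 FPKM in controls and 7.35 to 7.82 in mutants (log2 fold change -0.10 ± 0.078, SE). The DNA damage and stress targets *Gadd45a*, *Sesn1*, *Zmat3* and *Aen*, named after their values were seen, had log2 fold changes of 0.058, 0.018, 0.079 and 0.073, each smaller than its standard error. Below the filter, *Ephx1*, which encodes an epoxide hydrolase and is named after its values were seen, was at 1.25, 1.53 and 1.51 FPKM in control samples, against 0.775, 1.10 and 0.921 in mutant samples. The mutants were each below the controls. In the limma fit with a filter of FPKM 1, *Ephx1* had a log2 fold change of -0.33 ± 0.11 (SE, adjusted p = 1.0). It passed an unadjusted threshold of 0.05 there, at 0.019, as did 2.27% of the 13415 genes of that fit, while *Perp* was at 0.050. Another target below the filter, *Gdf15*, which encodes a secreted stress cytokine, was at most 0.045 FPKM and listed at 0 in 3 of 6 samples.

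Of 21 regulators of p53 found in the table, 18 passed the filter. At an unadjusted p under 0.05 there were 0 of 18, beside 1.66% of the genes tested. Their median log2 fold change was -0.0054, with 7 above 0. *Hipk2*, a kinase that phosphorylates p53, had the largest log2 fold change of this list, 0.21 ± 0.14 (SE), at 9.82, 13.3 and 14.4 FPKM in control samples, against 15.1, 13.3 and 15.1 in mutant samples. Control replicate 1 was the lowest sample, and the difference was 0.57 between the first replicates and 0.032 over replicates 2 and 3. *Trp63*, the p53 relative that directs stratified epithelia, was at 7.60, 9.69 and 9.10 FPKM in control samples, against 7.59, 7.20 and 7.65 in mutant samples (log2 fold change -0.20 ± 0.10, SE, unadjusted p = 0.084). *Mdm4*, the partner of Mdm2 that holds p53 inactive and a gene named after its values were seen, had a log2 fold change of -0.19 ± 0.10 (SE, unadjusted p = 0.099). The tumour suppressor *Cdkn2a*, whose ARF product inhibits Mdm2, was at most 0.159 FPKM in any sample.

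**Figure D4:**
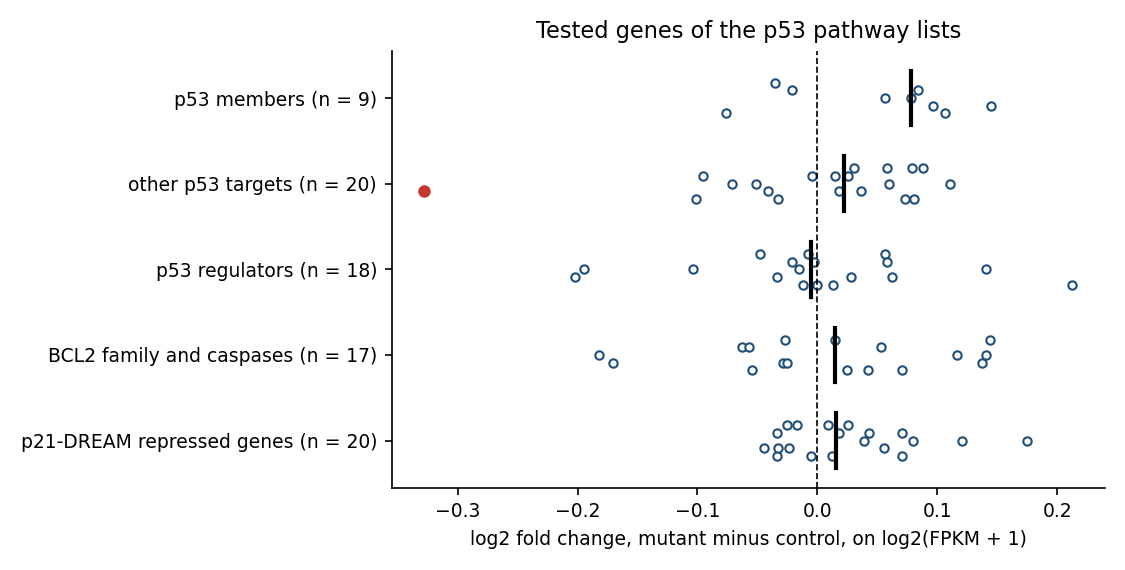
Log2 fold change, mutant minus control on log2(FPKM + 1), of the tested genes of 5 lists. Each circle is a gene, bars are medians over the tested genes of a list, and the filled red circle is *Perp*, the gene with an unadjusted p under 0.05. The points of the 9 tested members lie between -0.076 and 0.14, and the 4 other medians lie between -0.0054 and 0.022.

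The BCL2 family and the caspases, through which Bax, Puma and Noxa act, had 17 of 20 genes tested, 0 with an unadjusted p under 0.05 and a median log2 fold change of 0.015. *Bok*, a Bax relative, had the largest offset, at 27.8, 18.6 and 22.0 FPKM in control samples, against 20.1, 19.8 and 19.3 in mutant samples (log2 fold change -0.18 ± 0.14, SE). *Casp8*, the initiator caspase of death receptors, followed at -0.17 ± 0.11 (SE), with 6.73, 8.83 and 8.37 FPKM in control samples, against 6.40, 7.33 and 7.11 in mutant samples. The mutants were higher with no overlap for the anti-apoptotic *Bcl2l1*, at 55.3 to 60.0 FPKM in controls and 61.1 to 65.2 in mutants, and for the initiator caspase *Casp9*, at 11.6 to 12.8 and 12.9 to 13.3. These were 2 of the 17 genes tested, beside 2.63% of the 10061 genes tested, and neither passed the test, with unadjusted p-values of 0.095 and 0.16.

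The cell cycle genes that p53 is known to silence through p21 and the DREAM complex were the other side of the readout. All 20 on the list passed the filter, and 0 had an unadjusted p under 0.05, beside 1.66% of the genes tested. The median log2 fold change was 0.015, with 12 above 0. *Cdc20*, an activator of the anaphase-promoting complex, had the largest offset of this list, 0.17 ± 0.087 (SE, unadjusted p = 0.085). Its FPKM was 83.9, 80.9 and 88.6 in control samples, against 87.9, 96.4 and 103 in mutant samples. *Plk1*, a mitotic kinase, was at 49.9, 46.3 and 51.8 FPKM in control samples, against 53.6, 50.4 and 57.2 in mutant samples (log2 fold change 0.12 ± 0.083, SE). The proliferation marker *Mki67*, named after its values were seen, varied mainly by replicate number, at 22.6, 52.0 and 49.1 FPKM in control samples, against 27.2, 43.4 and 48.6 in mutant samples. The first replicate was the lowest of each group, and the log2 fold change was -0.0052 ± 0.34 (SE). With the replicate block, 5 genes of the 4 further lists had an unadjusted p under 0.05 (*Cdc20*, *Plk1*, *Bcl2l1*, *Casp6* and *Perp*) against 1 without it, beside 6.0% of the genes tested, and the lowest adjusted p in these lists was 0.81.

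The genes whose pattern over the 6 samples was nearest to that of *Cdkn1a* were *Sorcs2*, *Arpc1b* and *Crtap*, at root mean square distances of 0.035, 0.058 and 0.061 on the log2 scale after centring, where the spread of *Cdkn1a* itself was 0.17. *Sorcs2* was at 7.40, 9.49 and 6.98 FPKM in control samples, against 7.21, 9.29 and 6.95 in mutant samples, with the second replicate the highest of each group as in *Cdkn1a*. Nearest to *Trp53* were *Elk1*, *Spg21* and *Rabif*, at distances of 0.0070, 0.015 and 0.015, where the spread of *Trp53* was 0.035. None of these 6 genes belongs to the lists above.

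The targeted gene followed the labels. *Rbfox2* was at 58.4, 65.0 and 61.3 FPKM in control samples, against 38.1, 36.3 and 34.3 in mutant samples, a log2 fold change of -0.75 ± 0.079 (SE) with no overlap and an adjusted p of 0.14 in limma. *Pax3* was at 8.83, 11.9 and 11.1 FPKM in control samples, against 8.62, 7.59 and 8.36 in mutant samples (log2 fold change -0.33 ± 0.12, SE, unadjusted p = 0.026 in limma). It did not pass the adjusted threshold, and the difference was -0.033 between the first replicates and -0.48 over replicates 2 and 3. Cre replaced 1 copy of this locus in the mutants, and its part in the difference was not tested. The cranial mesenchyme markers that define this tissue were present, with 15 of 15 over 1 FPKM in each sample and sums of 617 to 668 in controls and 567 to 671 in mutants. The 12 neuronal markers summed to 894 to 962 FPKM in controls and 1048 to 1136 in mutants, with no overlap. Of single genes tested, 5.0% did not overlap, and no share was computed for sums. Sums of erythroid, forebrain, choroid plexus, endothelial, macrophage and cartilage markers overlapped between the groups, and no marker gene found in the table was at 0 in each sample. The part of these marker sums in the values of the p53 genes was not tested.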

How the data were processed

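RNA-Seq of poly(A)+ RNA from E12.5 craniofacial tissue was available for 3 control and 3 *Rbfox2* mutant samples, grouped and numbered by their labels, which state independent biological replicates. The authors made stranded libraries, sequenced paired ends and aligned them to GRCm38 with STAR, and the submitters' processing notes also name FastQC 0.11.4 and Cuffdiff. The authors deposited FPKM values per gene in 1 joint table and in 6 tables of single samples (0 differences between them). The annotation release and the step that made the gene table are not given in the sources used here. FPKM holds no read counts, so no count test was run, and the precision that depth gives to single values cannot be stated. Of the identifiers, 95.0% were in GENCODE M21 (GRCm38), which gave coordinates. Python 3.11.15 with pandas 2.3.3 and scipy 1.17.1 read the tables.

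Genes with an FPKM above 5 in every control or every mutant sample were kept, a threshold that the study set for transcripts in Cuffdiff. They were compared on log2(FPKM + 1) with limma 3.58.1 in R 4.3.3 (intensity trend, no covariates) and Benjamini-Hochberg adjustment over the 10061 genes. The pseudocount of 1 understates changes of low genes. Intervals are 95% limma intervals, and an exact two-sided permutation test was run per gene. Scripts were tested on simulated data. The members and lists were chosen with earlier results of these data known. Named genes are the 10 members, in each of the 4 further lists the genes with an unadjusted p under 0.05 and the 2 with the largest log2 fold change, the 3 genes nearest in pattern to *Cdkn1a* and to *Trp53*, and *Rbfox2* and *Pax3*; others are said to be named after their values were seen or stand in a count of 5 or fewer. Of 206 list entries 6 were not found in the table, 1 of them *Cop1*, which is listed there under its older symbol *Rfwd2*. Deviations from the group means correlated across genes at 0.64, 0.26 and 0.51 between samples numbered 1, 2 and 3, so the block was run. Unlike numbers gave 0.40 for control 3 with mutant 2 and 0.23 for control 2 with mutant 3, and -0.68 to -0.37 where a first replicate met another number. These values set the first replicates apart, do not tie 2 to 2 or 3 to 3, and no label gives a pairing. Alternatives were a pseudocount of 0.1, median-ratio scaling, quantile normalization, the replicate block, no trend, a Y-linked covariate, a term for the first replicates, replicates 2 and 3 only, other filters and each sample left out. Promoter windows were from RefSeq (GRCm38.p6).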

Additional observations from a re-analysis of the deposited data

How the results depend on the processing

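No member passed an adjusted p of 0.05 in any of the 16 alternatives, in which their lowest adjusted p was 0.42. In 160 refits of single members, 9 had the other sign. The block, the term for the first replicates, the fit without trend and the other filters leave each estimate unchanged by design. Their refits are among the 160 and could not change sign. *Mdm2* came to 0.031 with replicates 2 and 3 only, and *Pmaip1* to 0.29 with the Y-linked covariate and 0.072 with replicates 2 and 3 only. With 1 sample left out, log2 fold changes ran from -0.14 to 0.11 for *Cdkn1a*, from -0.097 to 0.051 for *Mdm2*, from -0.25 to 0.055 for *Pmaip1*, from -0.030 to 0.20 for *Trp53inp1* and from -0.046 to 0.29 for *Btg2*. Members with an unadjusted p under 0.05 numbered 2 with replicates 2 and 3 only and 0 to 1 with 1 sample left out, the 1 being *Bbc3* without control replicate 1. Members whose groups did not overlap numbered 0 after median-ratio scaling, 0 after quantile normalization, 3 with replicates 2 and 3 only and 1 to 3 with 1 sample left out. The share of all genes tested was 45.0% with replicates 2 and 3 only, against 5.0% with all samples. It is not given for the scaled samples or with 1 sample left out, so those counts are not read as a result. Other pathway genes with an unadjusted p under 0.05 numbered 0 with a pseudocount of 0.1, median-ratio scaling, quantile normalization or no trend and 2 with no filter. They numbered 5 with the replicate block, beside 6.0% of the genes tested, and 5 with the term for the first replicates. With replicates 2 and 3 only they numbered 10, beside 11.0% of the genes tested, and with 1 sample left out 0 to 4. The 4 further lists held 20, 18, 17 and 20 tested genes, and these counts are not read as a result. Over all genes, those with an unadjusted p under 0.05 numbered 167 as reported, 304 with a filter of 1, 663 with no filter, 604 with the replicate block and 611 with the term for the first replicates. They numbered 1103 with replicates 2 and 3 only, 78 without control replicate 2, 649 without control replicate 1 and 413 without mutant replicate 1. Genes past an adjusted p of 0.05 numbered 3 with the term for the first replicates, 4 with replicates 2 and 3 only and 0 to 1 with 1 sample left out. *Rbfox2* passed the adjusted threshold with the term for the first replicates (-0.75, adjusted p = 0.030) and with replicates 2 and 3 only (-0.82, adjusted p = 0.033). The cause of these changes was not tested. The block changed no other call of a result reported here, and the median of all genes moved by less than 0.1 (log2) in every alternative. The files give no read counts, so what depth limits could not be assessed.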
